A study of Homo sapiens with 24 samples.

Results

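The 10 genes described here encode RNA-binding proteins that set patterns of alternative splicing in particular tissues and cell lineages: MBNL1, MBNL2, MBNL3, CELF1, CELF2, RBFOX2, ESRP1, ESRP2, PTBP1 and PTBP2. They are 10 of the 60668 gene identifiers in the largest of the deposited tables. They were taken by Ensembl identifier and were chosen by the values of MBNL2. Its mRNA differed in opposite directions in non-small cell lung cancer lines with HEPACAM2 overexpressed and in small cell lung cancer lines labelled CRISPR. These directions held whichever library was left out. The kind of line and the kind of treatment go together here and cannot be told apart. Because MBNL2 in these contrasts set the choice, its values are given as a description with no test.

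RNA-seq was made from 4 human lung cancer cell lines in 8 groups of 3 libraries, 24 libraries in all, and the submitters state that the 3 were independent biological replicates. A549 and NCI-H1299 (H1299 below), lines of non-small cell lung cancer, were compared as WT control and as cells with HEPACAM2 overexpressed (OE). DMS454 and NCI-H1694 (H1694 below), lines of small cell lung cancer, were compared as WT control and as cells labelled CRISPR, with the genotype HEPACAM2 knockdown. HEPACAM2 is a membrane protein of the immunoglobulin superfamily. The sources used here do not name the vector or the guide, nor say whether a line was a clone or a pool, and all groups grew in the medium the supplier recommends. Differences are log2(normalized count + 1) in the library labelled OE or CRISPR minus that in the library labelled control, where a normalized count is a read count divided by the library's size factor.

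MBNL proteins bind short motifs with a GC core between pyrimidines and promote exon patterns of differentiated tissue, and they are the proteins sequestered by expanded CUG repeats in myotonic dystrophy. CELF proteins often act against MBNL on the same exons, and RBFOX proteins bind a GCAUG element and drive muscle, neuronal and mesenchymal exons. ESRP1 and ESRP2 enforce epithelial exons, for instance in FGFR2, and are lost in the epithelial-mesenchymal transition (EMT). PTBP1 represses neuronal exons in most cells, and neurons replace it by its paralog PTBP2. Counts here are per gene, so isoforms and splicing itself were not measured.

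The regions before the RefSeq starts of MBNL2 and PTBP2 are shown because MBNL2 set the choice of the genes and PTBP2 is the member called in opposite directions in the small cell lines. Each is the 250 bases before a start on the plus strand (RefSeq, GRCh38.p14), in lower case, and capitals mark a GC box, GGGCGG on either strand. The windows lie at chr13:97141584-97141833 and chr1:96722388-96722637, and neither overlaps an exon of the GENCODE 29 annotation. The PTBP2 window lies in an intron of PTBP2 there, and the window of another RefSeq start of MBNL2 meets an MBNL2 exon and is not shown.
MBNL2: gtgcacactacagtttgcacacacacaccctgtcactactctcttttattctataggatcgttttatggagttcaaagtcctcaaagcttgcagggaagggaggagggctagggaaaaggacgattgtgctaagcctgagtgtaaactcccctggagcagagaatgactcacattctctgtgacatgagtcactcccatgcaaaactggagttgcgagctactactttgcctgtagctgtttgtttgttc
PTBP2: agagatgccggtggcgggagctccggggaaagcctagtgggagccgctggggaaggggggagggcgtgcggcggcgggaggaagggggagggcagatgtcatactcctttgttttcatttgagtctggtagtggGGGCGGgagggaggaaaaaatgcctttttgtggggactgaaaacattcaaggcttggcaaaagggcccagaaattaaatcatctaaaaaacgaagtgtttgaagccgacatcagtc
The MBNL2 window holds no GC box and 46.8% G or C, and the PTBP2 window holds 1 GC box and 55.2% G or C. A GC box was found in 42.6% of all 35116 windows of this length in the table, so a match is common. The E-box CACCTG, the core letters bound by ZEB and SNAI repressors, was searched on both strands, is in neither window, and is in 17.5% of all windows. Of the members, 7 have an entry in the table.

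MBNL2 lies on chromosome 13 from 97221434 to 97394120 and MBNL1 on chromosome 3 from 152243828 to 152465780 (GRCh38, GENCODE 29). The RefSeq start used for the MBNL2 window lies upstream of the GENCODE 29 gene. CELF1 lies on chromosome 11 from 47465933 to 47565569, RBFOX2 on chromosome 22 from 35738736 to 36028425, and ESRP2 on chromosome 16 from 68229111 to 68238102. PTBP1 lies on chromosome 19 from 797075 to 812327 and PTBP2 on chromosome 1 from 96721665 to 96823738. All are protein-coding genes. The library kit keeps strand, but the sources used here do not describe the counting step, so reads of MBNL1 and of its antisense neighbour MBNL1-AS1, whose exons meet, may not be separated.

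HEPACAM2 itself was read first as the check of the labels. In A549 its normalized count was 1.10, 0 and 0 in the control libraries and 6074, 5864 and 6084 in the OE libraries, and in H1299 it was 3.49, 3.07 and 2.08 against 27257, 24999.9 and 23710.2. In DMS454 it was 6430.1, 6543 and 6677 in the libraries labelled control and 11460.0, 11256 and 10844 in those labelled CRISPR. In H1694 it was 3433, 3551 and 3688 in the libraries labelled control and 10124, 10545 and 10399 in those labelled CRISPR. The mRNA thus goes against the knockdown label in both small cell lines, where the libraries labelled CRISPR hold more of it, and every direction given for these lines rests on the labels. Before the replicate number, the columns titled control are coded G2 in DMS454 and G6 in H1694, and those titled CRISPR are coded pL with no number. The labels do not explain these codes. Whether the arms were exchanged in the labels was not tested. If they were, the sign of every difference in DMS454 and H1694 would turn, and the values given for control would be those of the edited cells. MBNL2 would then be higher in the overexpressing or edited arm of all 4 lines. Relative to HEPACAM2 mRNA, the directions of MBNL2 are opposite either way. In all 4 lines the arm labelled OE or CRISPR is the arm with more HEPACAM2 mRNA.

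Total reads recovered from the tables ran from 12704476 to 31770858 per library. Control 1 and OE 1 were the odd libraries of H1299, with a median absolute log2 difference of 0.18 to 0.20 from the rest of their groups, against 0.08 between the other libraries. CRISPR 3 of DMS454 differed by 0.13 and 0.14 from CRISPR 1 and 2, which differed by 0.07. The share of reads from mitochondrially encoded genes was 6.22 to 8.14% in A549 control and 5.77 to 6.16% in A549 OE, and the nuclear RNA NEAT1 held 0.0371 to 0.0433% of reads in H1299 control and 0.0564 to 0.0868% in H1299 OE; their part in the results of these lines was not tested. In the other comparisons the ranges of these shares overlapped. The blood markers PTPRC, CD3E and HBB were at or near 0 in DMS454 and H1694 and are not listed for A549 and H1299. CDH5, a cadherin of endothelium, stood at 3094 to 3159.9 normalized counts in H1694 control, and at 3641 to 3770.4 in H1694 CRISPR, with no overlap, while PECAM1 stood at 17.3 to 27.2 and 18.3 to 32.1. The part of CDH5 in the results of H1694 was not tested.

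MBNL2 mRNA was higher with HEPACAM2 overexpression in A549 and H1299 and lower in the CRISPR-labelled libraries of DMS454 and H1694. In A549 its normalized count was 466, 506 and 472 in control and 579, 551 and 612 in OE. In H1299 it was 100.3, 123 and 144 in control and 202, 214 and 209 in OE. All OE libraries of both lines lay above all control libraries of the same line. With means taken on the log2 scale, OE was higher by 20.6% in A549 and by 71.8% in H1299. In DMS454 the gene stood at 1382, 1532 and 1507 in control and at 977, 960.5 and 1029 in CRISPR. In H1694 it stood at 288, 282 and 273 in control and at 202, 195 and 198 in CRISPR. Here every library labelled CRISPR lay below every library labelled control, as the plot of the 10 genes by library shows. With means taken in the same way, CRISPR differed from control by -32.8% in DMS454 and by -29.2% in H1694.

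The log2 difference of MBNL2 was 0.27 (SE 0.07) in A549, 0.78 (SE 0.15) in H1299, -0.57 (SE 0.06) in DMS454 and -0.50 (SE 0.09) in H1694, with n = 3 libraries per group. In bulk RNA a lower level per cell and fewer cells with the transcript cannot be told apart. Over all other settings of the analysis it ran from 0.23 to 0.31, from 0.65 to 0.90, from -0.62 to -0.55 and from -0.52 to -0.48 in the same order. The median absolute difference over all genes tested was 0.21 in A549, 0.28 in H1299, 0.16 in DMS454 and 0.14 in H1694, so the MBNL2 difference was close to that of a typical gene in A549 and larger in the other lines. Arms without overlap were common in these data: 51.8% of tested genes in A549, 43.3% in H1299, 36.6% in DMS454 and 35.0% in H1694 had none.

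**Figure D1:**
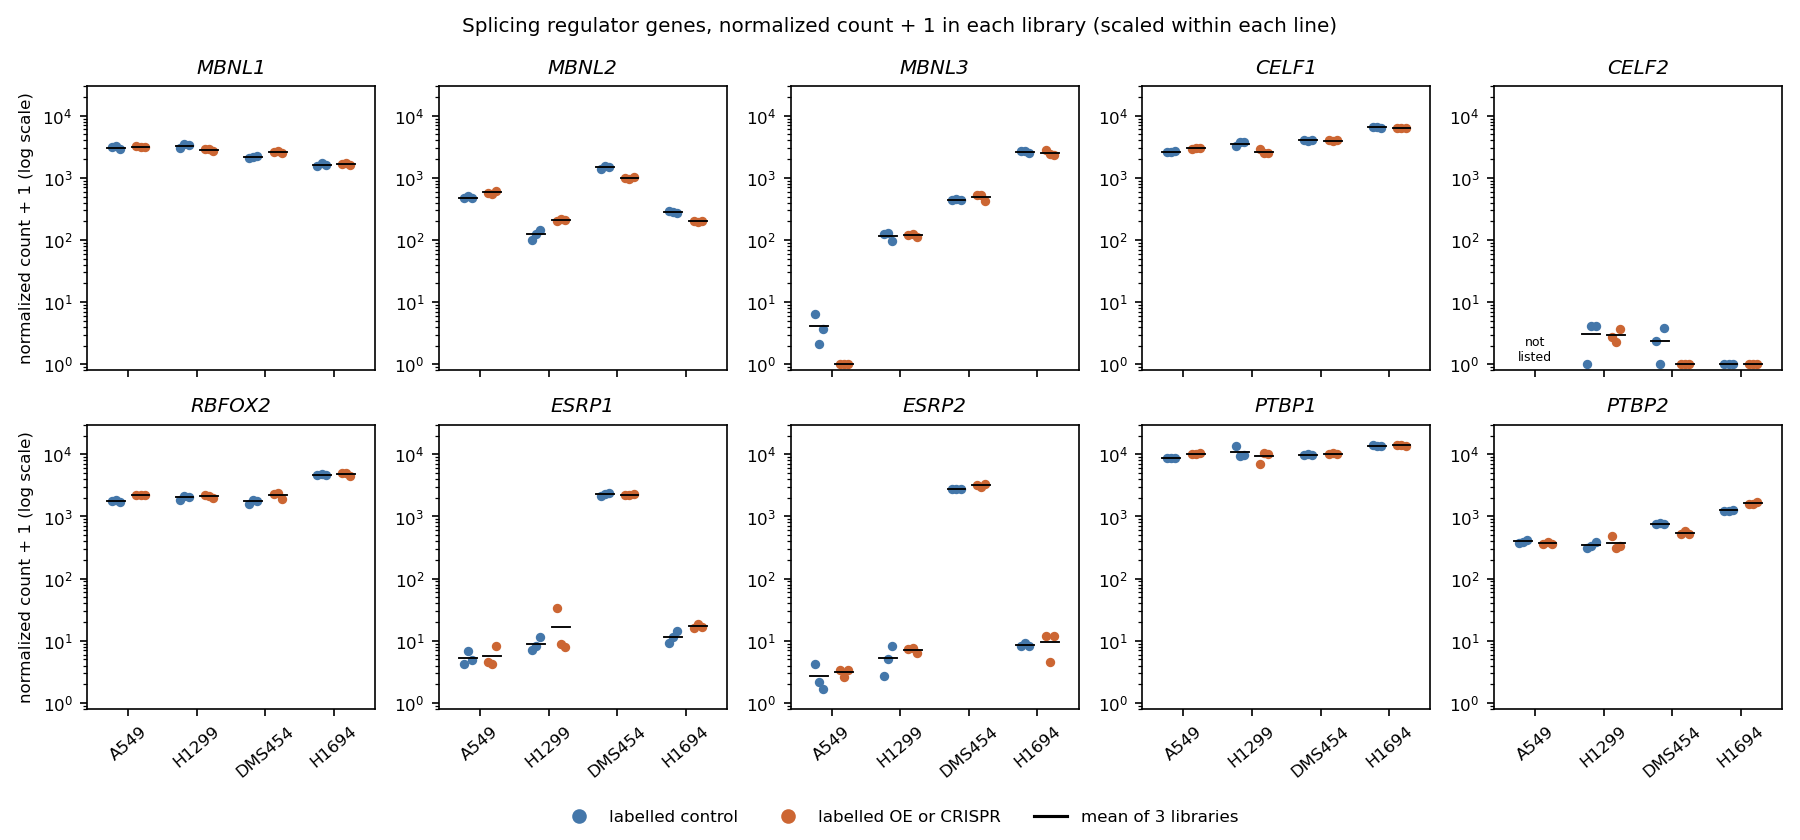
Normalized count + 1 of each of the 10 genes in each library, on a log scale, with libraries labelled control in blue and those labelled OE or CRISPR in orange, and a bar at the mean of 3 libraries. MBNL2 is the gene whose orange points lie above the blue in A549 and H1299 and below them in DMS454 and H1694, and ESRP1 and ESRP2 stand at 2167 or more in DMS454 and at 32.1 or less in the other lines.

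The lines differ in which MBNL gene they use. As reads per kilobase of exon, MBNL1 made up 75.7% ± 0.7 (SD, n = 3) of MBNL mRNA in A549 control and 90.5% ± 0.3 in H1299 control. In DMS454 control MBNL2 was the leading form at 54.3% ± 0.5, with MBNL1 at 39.1% ± 0.5 and MBNL3 at 6.61% ± 0.3. In H1694 control MBNL3 led at 49.5% ± 1.4, with MBNL1 at 37.3% ± 1.7 and MBNL2 at 13.2% ± 0.4. MBNL3, the form associated with proliferating and undifferentiated cells, thus led the family in 1 line and was nearly absent in A549.

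In the arms labelled OE or CRISPR the make-up moved with MBNL2. Its share was 24.2% in A549 control and 27.2% in OE, and 6.87% in H1299 control and 12.7% in OE. In DMS454 it was 54.3% in control and 40.2% ± 2.2 (SD, n = 3) in CRISPR, where MBNL1 was the leading form at 51.8% ± 1.4. Per kilobase the order of MBNL1 and MBNL2 was thus reversed between the arms of DMS454 in every library. It rests on the summed exon lengths of 9989 and 4908 bases, since in normalized counts MBNL1 exceeded MBNL2 in both arms. In H1694 the MBNL2 share was 13.2% in control and 9.85% in CRISPR, while MBNL3 kept 49.5% and 49.8%. These shares contain the values that chose the list and are given without a test.

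**Figure D2:**
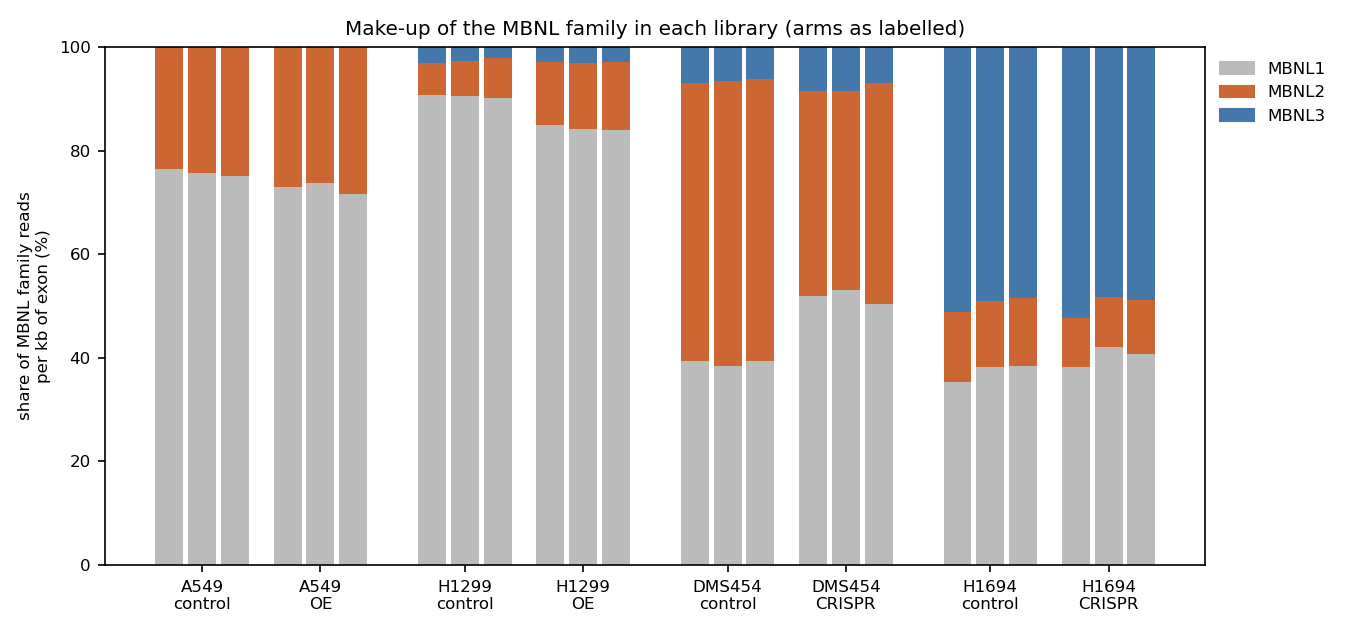
Share of MBNL1, MBNL2 and MBNL3 in the reads per kilobase of exon of the family, 1 bar per library, in percent. MBNL1 fills most of the A549 and H1299 bars, MBNL2 leads in DMS454 control at 54.3% and is behind MBNL1 in DMS454 CRISPR, and MBNL3 holds close to 50% only in the H1694 bars, where its range is 48.2 to 52.3%.

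MBNL1, the most widely expressed member of its family, differed between arms in 1 line. In DMS454 its normalized count was 2054, 2184 and 2229 in control and 2613, 2700.4 and 2466 in CRISPR. It rose by 0.27 on the log2 scale (SE 0.05, adjusted p = 0.0035, limma with Benjamini-Hochberg adjustment), or by 20.3%, with all 3 CRISPR libraries above control, while MBNL2 was lower in the same libraries. In H1299 MBNL1 stood at 2966, 3446 and 3376 in control and 2883, 2864 and 2691 in OE, a difference of -0.21 (SE 0.08) that missed the threshold (adjusted p = 0.077). Without control 1 and OE 1, the libraries that stood apart, it was -0.30 with an adjusted p of 1.2e-05. That fit keeps only libraries 2 and 3 of each group, and leaving out the libraries farthest from their groups narrows the spread by choice. In A549 (0.04, adjusted p = 0.41) and H1694 (0.03, adjusted p = 0.73) the arms overlapped.

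MBNL3 was counted in H1299, DMS454 and H1694 and hardly at all in A549. In H1694 it stood at 2690.5, 2681 and 2485 in control and 2753, 2415 and 2329 in CRISPR, and the arms overlapped (-0.07, adjusted p = 0.47). In DMS454 the difference was 0.13 (adjusted p = 0.39) and in H1299 0.05 (adjusted p = 0.85). Without CRISPR 3 of DMS454, which held 416 against 524 and 525 in its group, the difference was 0.24 with an adjusted p of 0.012. Without CRISPR 1 of H1694 it was -0.14 with an adjusted p of 0.026. In A549 the control libraries held 10 reads of MBNL3 together and the OE libraries 0. With OE set at a floor of 3 reads over the group, MBNL3 was 2.94-fold lower in OE. That value leaves out the counting error of the 10 control reads, and the gene is below the count filter and without a test.

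CELF1, which binds GU-rich RNA and also controls mRNA decay, changed in both overexpression lines, upwards in A549 and downwards in H1299. In A549 its normalized count was 2623, 2606 and 2700.0 in control and 2957, 2992 and 3024 in OE, a rise of 0.18 (SE 0.04, adjusted p = 1.9e-04) or 13.2%. In H1299 it was 3230.1, 3718 and 3732 in control and 2938, 2536 and 2467 in OE, and it fell by 25.7%, a log2 difference of -0.43 (SE 0.09, adjusted p = 0.0094). The arms did not overlap in either line. The fall in H1299 missed the threshold without control 2 (adjusted p = 0.051) and with a replicate block (adjusted p = 0.081). It was called without the libraries that stood apart, where libraries 2 and 3 of each group remain and the spread is narrower by choice. In DMS454 and H1694 CELF1 differed by -0.02 and -0.03 (adjusted p = 0.74 and 0.65). The arms overlapped in DMS454. In H1694 all CRISPR libraries (6380 to 6419) lay just below control (6431 to 6657).

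CELF2, a paralog typical of heart, brain and T cells, was at the edge of detection. It is not listed in the A549 table, which leaves out genes of very low mean, and had 0 reads in the 6 libraries of H1694. DMS454 control held 3 reads over the group and CRISPR 0, and H1299 held 6 reads in each arm. No fold is given for it.

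RBFOX2, the RBFOX gene of non-neuronal cells, rose in A549 and in DMS454. In A549 its normalized count was 1795, 1828 and 1727 in control and 2183, 2251 and 2174 in OE, a rise of 0.30 (SE 0.04, adjusted p = 5.3e-08) or 23.5%. In DMS454 it was 1603, 1862 and 1771 in control and 2321, 2389.5 and 1898 in CRISPR, a rise of 0.33 (SE 0.09, adjusted p = 0.028) or 25.8%. CRISPR 3 of DMS454 lay just above the highest control. That call was the least firm of the members: it was lost without control 1, control 3, CRISPR 1 or CRISPR 2, with adjusted p of 0.10, 0.080, 0.097 and 0.081, and it was kept without CRISPR 3. In H1299 (0.07, adjusted p = 0.54) and H1694 (0.05, adjusted p = 0.52) the arms overlapped.

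ESRP1 and ESRP2, the epithelial regulators, were expressed in 1 of the 4 lines. In DMS454 ESRP1 stood at 2167, 2292 and 2394 in control and 2210.1, 2187 and 2259 in CRISPR, and the arms overlapped (-0.04, adjusted p = 0.61). ESRP2 stood at 2771, 2718 and 2784 in control and 3202, 2989 and 3271 in CRISPR, a rise of 0.19 (SE 0.05, adjusted p = 0.012) or 14.3% in which all CRISPR libraries lay above control. That call was lost without control 2, control 3 or CRISPR 1 (adjusted p = 0.070, 0.052 and 0.062). Per kilobase of exon the ESRP1 share of both genes was 48.6% ± 1.3 (SD, n = 3) in control and 44.5% ± 0.8 in CRISPR.

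Outside DMS454 both ESRP genes were near the floor. In A549 ESRP1 was 3.22 to 7.34 and ESRP2 0.662 to 3.30 normalized counts over the 6 libraries, and in H1299 ESRP2 was 1.75 to 7.28. ESRP1 in H1299 passed the filter on low values only through OE 1, with 32.1 against 6.11 to 10.4 in the other libraries (adjusted p = 0.43). In H1694 ESRP1 was 8.29, 10.5 and 13.3 in control and 15.2, 17.6 and 15.9 in CRISPR, 32 reads against 51 over each group. The arms did not overlap, and the difference of 0.58 (SE 0.33) missed the threshold (adjusted p = 0.25).

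The ESRP pattern was set beside the epithelial and mesenchymal markers of the control libraries. DMS454 held EPCAM at 11092 to 11226 and the epithelial cadherin CDH1 at 10017 to 10255 normalized counts, the EMT repressor ZEB1 at 51.4 to 70.2 and vimentin (VIM) at 1.36 to 4.63, but it also held the most CDH2, the neuronal and mesenchymal cadherin, at 4283 to 4636 against 661 to 681 in A549, 786 to 833 in H1299 and 2088 to 2288 in H1694. A549 had CDH1 at 1527 to 1637 and EPCAM at 499 to 591, yet also VIM at 14109 to 15022, ZEB1 at 372 to 474 and both ESRP genes near 0. H1299 had VIM at 57179 to 62393, EPCAM at 2.08 to 8.18 and no listed CDH1, yet the epithelial keratins KRT8 and KRT18 at 5513 to 6996 and 11175 to 12589.8. H1694 had ZEB1 at 1539 to 1685 and CDH1 at 3.75 to 12.1, with VIM at 0, KRT8 at 4.85 to 7.11 and KRT18 at 124 to 143. The line with both ESRP genes on was the line with the least ZEB1.

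**Figure D3:**
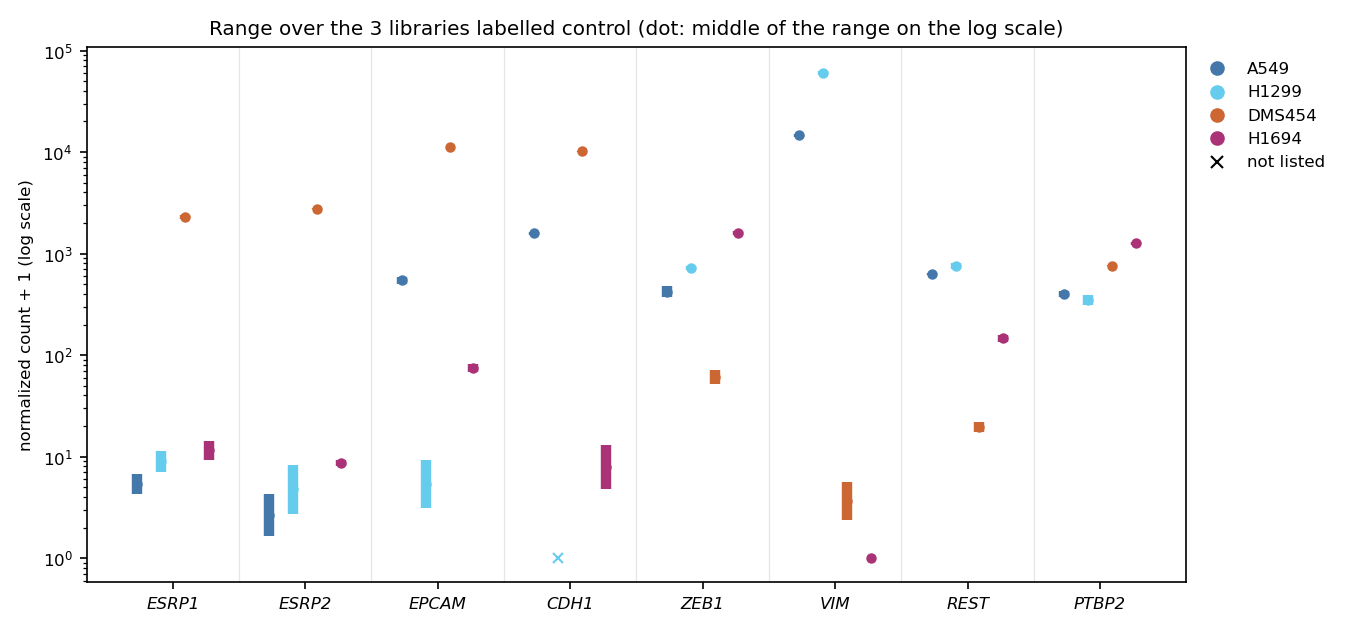
Range of normalized count + 1 over the 3 control libraries of each line, on a log scale, for the ESRP genes, 4 epithelial or mesenchymal markers, the neuronal repressor REST and PTBP2. DMS454 alone combines ESRP1 and ESRP2 at 2167 or more with CDH1 at 10017 or more, and it has the lowest REST.

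PTBP1, the ubiquitous repressor of neuronal exons, was high in all lines and rose in A549. Its normalized count there was 8698, 8853 and 8642 in control and 10249.8, 10120.1 and 10298 in OE, a rise of 0.23 (SE 0.03, adjusted p = 2.9e-07) or 17.1%. In H1299 the libraries of each group spread widely, with 13641, 9471 and 9585 in control and 6904, 10643 and 10166 in OE (-0.24, SE 0.19, adjusted p = 0.38). The highest and the lowest of these are the libraries that stood apart, and without them the direction turned to 0.13 with an adjusted p of 0.0066. Only libraries 2 and 3 of each group remain in that fit, and their spread is narrower by choice. In DMS454 all CRISPR libraries (10076 to 10429.7) lay just above control (9699 to 10053), a difference of 0.05 that missed the threshold (adjusted p = 0.34). In H1694 the difference was 0.03 (adjusted p = 0.69).

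PTBP2, the neuronal paralog, changed in the small cell lines and in opposite directions. In DMS454 its normalized count was 752, 773 and 749 in control and 529.9, 577 and 512 in CRISPR, and it fell by 28.9%, a log2 difference of -0.49 (SE 0.07, adjusted p = 4.1e-04). In H1694 PTBP2 stood at 1236, 1226 and 1289 in control and 1598, 1603 and 1691 in CRISPR, a rise of 0.38 (SE 0.05, adjusted p = 4.9e-05) or 30.4%. The arms did not overlap in either line, and both calls held under all 13 other settings. In A549 (-0.10, adjusted p = 0.30) and H1299 (0.09, adjusted p = 0.72) the arms overlapped.

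The balance of the PTBP genes followed. Per kilobase of exon PTBP2 made up 3.93% ± 0.03 (SD, n = 3) of PTBP mRNA in DMS454 control and 2.73% ± 0.13 in CRISPR, and 4.63% ± 0.17 in H1694 control and 5.85% ± 0.29 in CRISPR. It was 2.36% ± 0.16 in A549 control and 1.89% ± 0.09 in OE. In H1299 it was 1.72% ± 0.47 and 2.27% ± 1.1, with OE 1 alone at 3.57%. PTBP1 thus remained the main form in every library, at no less than 93.8%.

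**Figure D4:**
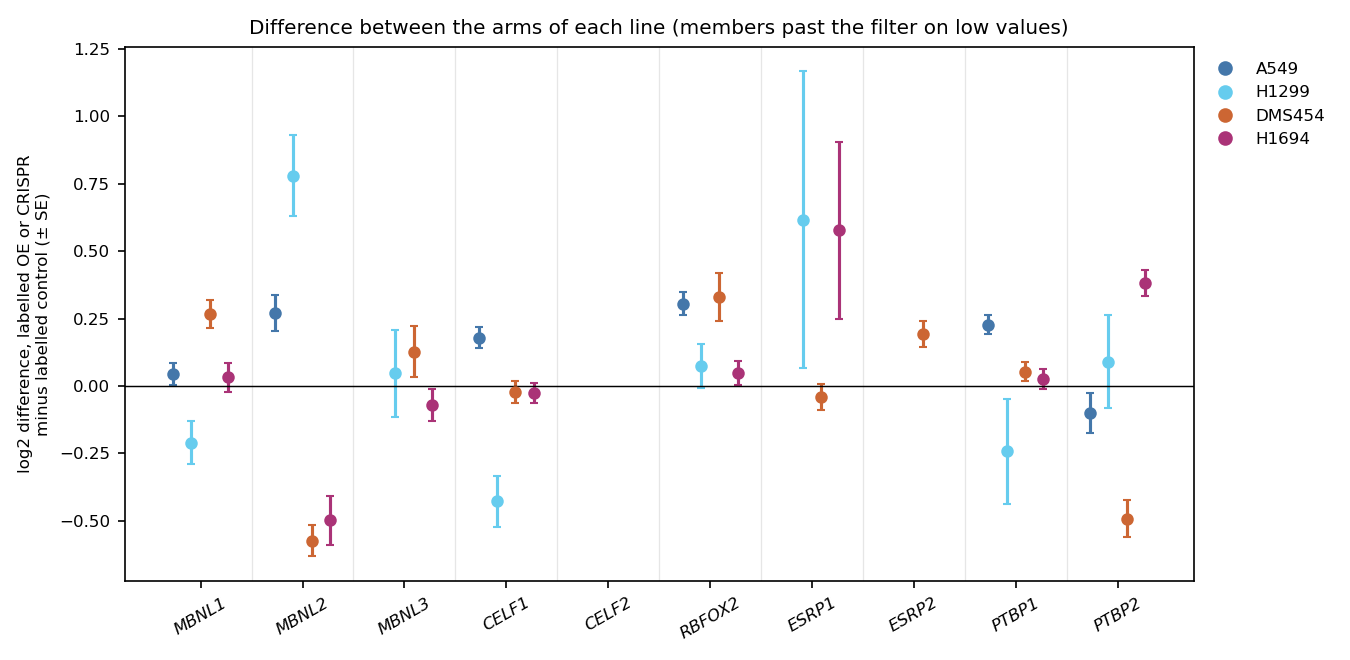
Log2 difference between the arms of each line with its standard error, for the members past the filter on low values, 1 colour per line. MBNL2 lies above 0 in A549 and H1299 and below 0 in DMS454 and H1694, PTBP2 lies at -0.49 in DMS454 and 0.38 in H1694, and CELF2 has no point.

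Counted over the 9 members other than MBNL2, the lines differed in how many passed the test. In A549 5 were tested and 3 rose (CELF1, RBFOX2 and PTBP1) and none fell, against 44.4% of all genes called, 22.5% higher and 21.9% lower. In H1299 7 were tested and CELF1 alone was called, lower, against 28.8% of all genes, 13.5% higher and 15.3% lower. In DMS454 8 were tested, MBNL1, RBFOX2 and ESRP2 rose and PTBP2 fell, against 18.9%, 9.15% higher and 9.72% lower. In H1694 7 were tested and PTBP2 alone rose, against 17.6%, 8.73% higher and 8.9% lower. The counts of 0 (lower in A549 and H1694, higher in H1299) were also 0 at an unadjusted p under 0.05 and by edgeR and DESeq2 on the recovered reads. They did not all hold with libraries left out. PTBP1 was called higher in H1299 (0.13) without control 1 and OE 1. MBNL3 was called lower in H1694 (-0.14) without CRISPR 1. The median difference of the tested members without MBNL2 was 0.18, 0.05, 0.09 and 0.03 in this order, and that of all genes lay within 0.002 of 0 in each line. With so many genes called in A549, its count is near the background of that line. The untested members were CELF2 (not listed) and MBNL3, ESRP1 and ESRP2 (below the filter) in A549, CELF2 and ESRP2 in H1299 and H1694, and CELF2 in DMS454.

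Whether a difference itself differed between lines under the same kind of label was tested for the members measured in both. Between A549 and H1299, 3 of 5 members passed, against 41.2% of all genes: CELF1 by -0.61 (SE 0.10, adjusted p = 2.6e-04), MBNL1 by -0.25 (SE 0.09, adjusted p = 0.034) and RBFOX2 by -0.23 (SE 0.09, adjusted p = 0.048), given as H1299 minus A549. Between DMS454 and H1694, 3 of 7 passed, against 20.2%: PTBP2 by 0.87 (SE 0.08, adjusted p = 1.6e-06), ESRP1 by 0.62 (SE 0.19, adjusted p = 0.032) and MBNL1 by -0.23 (SE 0.08, adjusted p = 0.041), given as H1694 minus DMS454. CELF1 and PTBP2 passed under all other settings run, 17 and 16 of them, while the other 4 calls were lost under 8 or more. The ESRP1 value rests on normalized counts of 17.6 or less in H1694. The difference of RBFOX2 between DMS454 and H1694 was -0.28 (adjusted p = 0.085), and PTBP1 between A549 and H1299 was -0.47 (adjusted p = 0.12).

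Levels in the control libraries were compared across lines as CPM, recovered reads scaled to a common library size, as a description, since the 4 tables were normalized separately. MBNL2 was highest in DMS454 at 62.9 CPM ± 4.3 (SD, n = 3), followed by A549 at 26.4 ± 1.2, H1694 at 11.3 ± 0.4 and H1299 at 7.17 ± 1.3, an 8.77-fold span with no overlap between neighbours. MBNL3 ran from 105 CPM in H1694 through 19.0 in DMS454 and 6.76 in H1299 to 0.169 in A549, the order being free of overlap as well. MBNL1 was 191 CPM in H1299 and 168 in A549, which overlapped, then 92.0 in DMS454 and 64.9 in H1694. MBNL1 was therefore lowest and MBNL3 highest in H1694.

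CELF1 was highest in H1694 at 262 CPM, followed by H1299, DMS454 and A549 at 209, 172 and 145. RBFOX2 was highest in H1694 at 188 CPM, followed by H1299, A549 and DMS454 at 119, 97.7 and 74.5, and no neighbours overlapped for either gene. ESRP1 was 97.5 CPM in DMS454 and 0.238 to 0.463 elsewhere, and ESRP2 was 118 in DMS454 and 0.0930 to 0.303 elsewhere. PTBP1 had the flattest order, from 639 CPM in H1299 through 549.9 in H1694 (overlapping) and 478 in A549 to 421 in DMS454, a span of 1.52-fold. PTBP2 was 50.1 CPM in H1694 and 32.4 in DMS454, above A549 and H1299 at 21.7 and 20.3, which overlapped.

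REST, the repressor of neuronal genes, was 609 to 649 normalized counts in A549 control, then 702 to 797 (H1299), 16.3 to 20.9 (DMS454) and 134 to 156 (H1694). The small cell lines, with less REST, were the lines with more PTBP2, but the line with the least REST was not the one with the most PTBP2. The small cell lines carried the neuroendocrine marker INSM1, at 24724 to 25302 normalized counts in DMS454 control and 9531 to 10694 in H1694 control. NEUROD1 stood at 21630.4 to 21790.4 in H1694 control but at 62.5 to 75.1 in DMS454 control. DLL3 was counted in every line, at 304 to 323 in A549 control, 236 to 348 in H1299 control, 2072 to 2133 in DMS454 control and 478 to 511 in H1694 control. INSM1 is not listed in A549 or H1299.

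Other regulators of tissue-specific splicing were called at 58.3% of those tested in A549, 25.0% in H1299, 44.4% in DMS454 and 32.1% in H1694, beside 44.4%, 28.8%, 18.9% and 17.6% of all genes, so the H1299 share is no higher than its background. Of 24 tested in A549, 11 rose and 3 fell, with a median difference of 0.11. RBFOX3, a neuronal RBFOX gene, fell from 1064 ± 31 (SD, n = 3) to 135 ± 32 normalized counts (adjusted p = 2.4e-05). NOVA1, a neuronal splicing factor, fell by 0.69 and MSI1, a stem-cell RNA-binding protein, rose by 0.84 (from 59.3 ± 8.4 to 106 ± 7.2). In H1299 5 of 20 fell and none rose, with a median of 0.0030, among them RBM24 by 0.69, QKI by 0.55 and PTBP3, another PTBP paralog, by 0.38 (adjusted p = 0.0013, 8.9e-04 and 0.0088). Without control 1 and OE 1 the H1299 count was 3 higher and 7 lower of 20. In that setting 4383 of all 16243 genes tested were called higher and 4539 lower.

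In DMS454 9 of 27 of these regulators fell and 3 rose, with a median of -0.10. MSI1 fell by 1.58 (SE 0.16), from 156 ± 18 (SD, n = 3) to 51.6 ± 6.1, and the CELF paralog CELF4 fell by 0.65 and RBM38 by 0.59 (adjusted p = 3.6e-05, 5.0e-04 and 4.0e-05). Without CRISPR 3 the count was 6 higher and 13 lower, when 3159 of all 18900 genes tested were called higher and 3446 lower. In H1694 7 of 28 rose and 2 fell, with a median of 0.08: RBFOX1, the neuronal and muscle RBFOX gene, rose by 0.46 (SE 0.05) from 973 ± 34 to 1339 ± 52, while RBM24 fell by 0.71 and RBMS3 by 0.87 (adjusted p = 1.8e-05, 5.3e-04 and 3.0e-04). MSI1 thus had opposite signs in A549 and DMS454.

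Genes of the general splicing machinery were called mostly higher in A549 and, over all 6 libraries, in no case higher in H1299. In A549 9 of 14 SR proteins, 14 of 25 hnRNP proteins and 20 of 40 core spliceosome genes rose, and 1, 1 and 4 fell, beside 22.5% of all genes higher and 21.9% lower. In H1299 none of 14, 24 and 39 rose, and 8, 11 and 19 fell, beside 13.5% of all genes higher and 15.3% lower. The lists as such, and their difference between the lines, were not tested. SRSF1 rose by 0.23 in A549 and fell by 0.60 in H1299 (adjusted p = 3.1e-06 and 0.0056), and SYNCRIP, an hnRNP protein also called hnRNP Q, rose by 0.43 and fell by 0.57 (adjusted p = 3.1e-13 and 0.0015). The medians of the lists were 0.13, 0.09 and 0.09 in A549 and -0.28, -0.23 and -0.26 in H1299, beside medians near 0 over all genes. CELF1 shared these directions, with a rise in A549 and a fall in H1299.

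The H1299 counts were larger without the libraries that stood apart: 12 SR proteins, 16 hnRNP proteins and 30 core genes fell, and 0, 1 and 5 rose. The count over all genes was larger there too, with 4383 of 16243 tested called higher and 4539 lower. With limma on all 6 libraries, the counts of 0 higher among the splicing lists of H1299 were 0 at an unadjusted p under 0.05 as well, except 2 hnRNP genes, and were 0 by edgeR and DESeq2. In DMS454 1 of 14, 1 of 25 and 5 of 39 rose and 1, 1 and 3 fell, and without CRISPR 3 these were 3, 4 and 10 higher and 6, 10 and 4 lower. Without that library 3159 of all 18900 genes tested were called higher and 3446 lower. On all 6 libraries of DMS454 these lists were called at 14.3%, 8.0% and 20.5%, near or below the 18.9% of all genes. In H1694 3 of 14, 5 of 24 and 7 of 40 rose and 1, 0 and 0 fell (the counts of 0 were 0 at an unadjusted p under 0.05 and by edgeR and DESeq2), or 28.6%, 20.8% and 17.5% called beside 17.6% of all genes. SRSF5 rose in H1694 by 0.54 and HNRNPA1 by 0.24 (adjusted p = 0.0082 and 1.2e-04). In DMS454 the core factor SNRPB2 rose by 0.22 and PRPF8 fell by 0.19 (adjusted p = 0.0028 and 0.020).

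**Figure D5:**
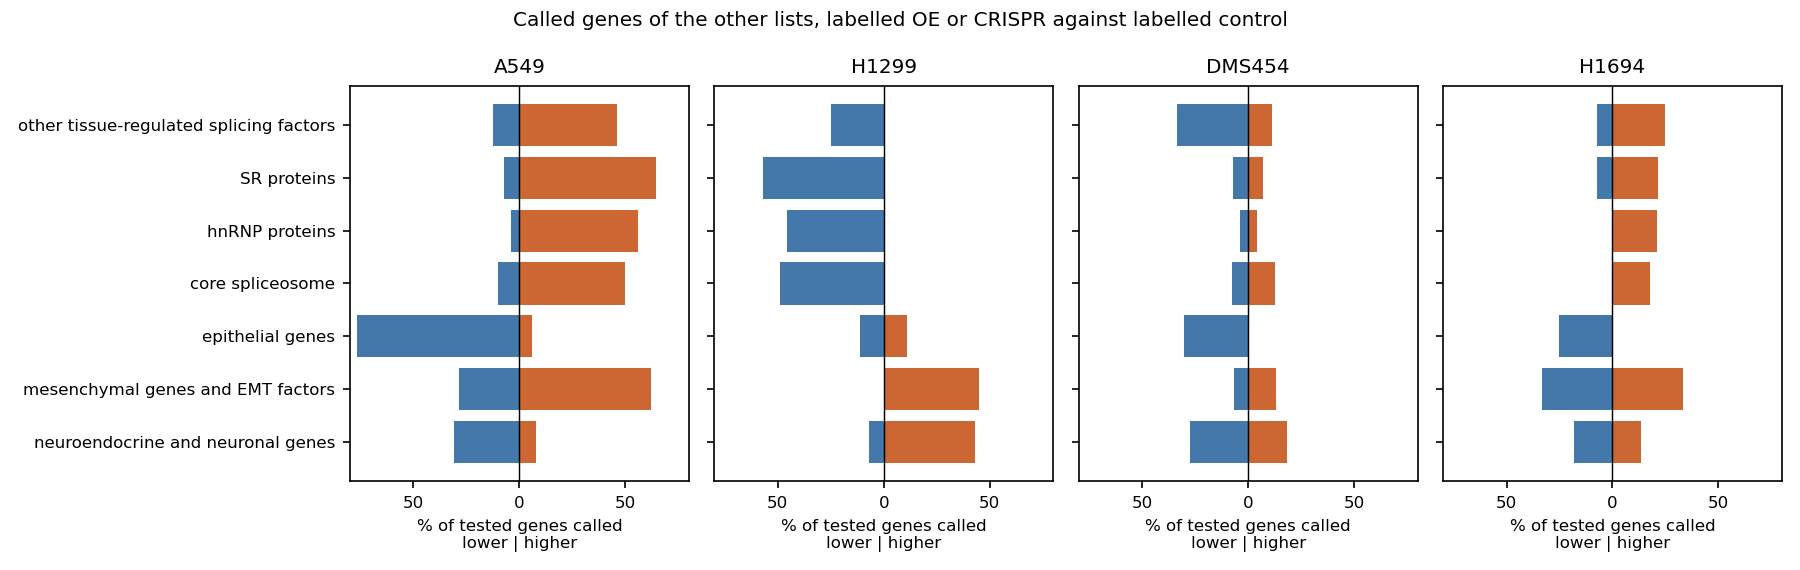
Percent of tested genes of each list called lower (left, blue) or higher (right, orange) in each line, at an adjusted p under 0.05. Splicing lists point right in A549 and left in H1299, and epithelial genes point left in A549, where 13 of 17 fell.

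Lineage genes were counted beside the members. The epithelial list was called at 82.4% in A549, 22.2% in H1299, 30.4% in DMS454 and 25.0% in H1694, the mesenchymal list at 90.5%, 45.0%, 20.0% and 66.7%, and the neuroendocrine and neuronal list at 38.5%, 50%, 45.5% and 31.8%, in the same order. Beside 44.4%, 28.8%, 18.9% and 17.6% of all genes, the epithelial share of H1299 and the neuroendocrine share of A549 lay below the background, and the mesenchymal share of DMS454 was near it. In A549 13 of 17 tested epithelial genes fell and 1 rose, and 13 of 21 mesenchymal genes and EMT factors rose and 6 fell, while both ESRP genes stayed near 0 in each arm. The tight-junction gene TJP3 fell by 1.67 and the matrix genes SPARC and COL1A1 rose by 3.83 and 3.03 (adjusted p = 3.1e-15, 2.4e-33 and 7.3e-39). The summed epithelial list held 221907 to 230525 normalized counts in A549 control and 198973 to 208621 in OE, and the summed mesenchymal list 45648 to 47836 and 66032 to 68808, and none of the 21 epithelial and 23 mesenchymal genes that the A549 table holds was at 0 in all libraries of an arm. Most of the epithelial sum was KRT8 (83043 to 88358 in control, 71454 to 74064 in OE) and KRT18 (75139 to 78647 in control, 57133 to 60423 in OE). The sum thus follows these keratins and does not speak for the other genes. In H1299 9 of 20 mesenchymal genes rose and none fell, FN1 by 1.52 and VIM by 0.81 among them, and 1 of 9 epithelial genes rose and 1 fell. At an unadjusted p under 0.05 limma called 1 mesenchymal gene lower in H1299, edgeR called 1 and DESeq2 0. The part of these lineage genes in the differences of the members was not tested. Without control 1 and OE 1 of H1299, 12 mesenchymal genes rose and 1 fell, and 2 epithelial genes rose and 2 fell. In that setting 4383 of all 16243 genes tested were called higher and 4539 lower.

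In DMS454 7 of 23 epithelial genes fell and none rose (3 at an unadjusted p under 0.05, 0 by edgeR and DESeq2), led by KRT19, a simple-epithelium keratin, which fell by 0.53 (adjusted p = 5.9e-06), while ESRP2 rose. Without CRISPR 3 of DMS454, 11 of 22 fell and 2 rose, when 3159 of all 18900 genes tested were called higher and 3446 lower. CDH2 rose by 0.40 over all 6 libraries of DMS454. In H1694 3 of 12 epithelial genes fell and none rose (1 at an unadjusted p under 0.05, 0 by edgeR and DESeq2), and mesenchymal genes split into 6 higher and 6 lower of 18. Of 22 neuroendocrine and neuronal genes 4 rose and 6 fell in DMS454, where PTBP2 fell, and 3 rose and 4 fell in H1694, where PTBP2 rose. In H1694 CHGB and SCG2, cargo proteins of secretory granules, fell by 0.58 and 0.55, and the Notch ligand DLL3 rose by 0.51. Of 14 tested in H1299, 6 rose and 1 fell, and of 13 in A549 1 rose and 4 fell, with SNAP25 higher by 1.56 in H1299 and lower in A549, where it fell by 1.01.

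The genes most like MBNL2 were ranked by Pearson correlation over the 24 libraries after the mean of each line was taken away, among 10014 genes with a mean of at least 50 in every line. TNFRSF11A (0.90), SMARCA2 (0.90), E2F7 (0.88), ELF1 (0.88) and ADAM23 (0.87) led. The points share the 8 groups, so the measure mostly reflects the same order of arms in each line. SMARCA2, a chromatin-remodelling ATPase, differed by 0.22, 0.60, -0.74 and -0.49 in A549, H1299, DMS454 and H1694, and TNFRSF11A, the receptor RANK, by 0.11, 0.56, -0.55 and -0.47. Among the members the correlation with MBNL2 was -0.58 for MBNL1, -0.38 for CELF1, -0.32 for PTBP1, -0.08 for RBFOX2 and 0.17 for PTBP2.

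In the authors' deposited values the libraries titled OE are the numerator of the fold changes for A549 and H1299. HEPACAM2 has a log2 fold change of 14.1 and 13.1 there. For both small cell lines the libraries titled control, coded G, are the numerator, which turns the sign against that used here. HEPACAM2 has a log2 fold change of -0.77 in DMS454 and -1.54 in H1694, and PTBP2 has 0.50 in DMS454 and -0.38 in H1694. The reason for the different numerators was not tested. MBNL2, given with no test, has 0.27 in A549, 0.77 in H1299, 0.58 in DMS454 and 0.50 in H1694. At an adjusted p under 0.05 the authors' deposited tables call PTBP1, RBFOX2 and CELF1 in A549, CELF1 in H1299, PTBP2, MBNL1, RBFOX2 and ESRP2 in DMS454 and PTBP2 in H1694.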

How the data were processed

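Stranded total-RNA libraries were sequenced, and per the submitters' processing notes the authors used CASAVA, FastQC, Trim Galore, STAR, the hg38 build and DESeq2. Their versions, the counter and the gene annotation are not stated there. Each line has 1 deposited table. Per the file headers it holds normalized counts per library (a size-factor scaled signal), and the authors' mean signal, log2 fold change with its error, test score and p-values. The A549 and H1299 tables leave out genes of low mean (lowest mean 1.13 and 1.47). Dividing by the value of 1 read gave whole reads (within 0.01) for 100% of the deposited values.

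Groups follow the sample titles. Genes with a mean of at least 10 in 1 group were tested per line with limma 3.58.1 (trend and robust, R 4.3.3) on log2(normalized count + 1), labelled OE or CRISPR minus control, Benjamini-Hochberg adjusted over all genes at 0.05; this scale understates changes of low genes. Differences between lines used the interaction term over the libraries of 2 lines. Alternatives were TMM scaling, no filter, a mean of 50, pseudocount 5, a replicate block, edgeR 4.0.16 and DESeq2 1.42.0 on the recovered reads, and leaving out libraries. Leaving out H1299 control 1 and OE 1 in the difference between lines and the lists, and DMS454 CRISPR 3 in the lists, was chosen after seeing the data. In the test within H1299 the pair left out is also the pair that stood apart, so the remaining spread is narrower by construction. The fit was also run on simulated data with 200 changed genes, and the outcome is not given here. Every gene had the same dispersion there and no library stood apart, so the simulation does not cover H1299 and DMS454. Symbols were matched for 99.4 to 99.5% of identifiers.

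The members and all gene lists were chosen with earlier results of these data known. Named genes are the members, HEPACAM2, up to 3 called genes per list and line with the largest difference and a mean of at least 50, and the 5 genes most like MBNL2; marker genes and MBNL1-AS1 are named as descriptions. Counts per kilobase use the summed exon length of GENCODE 29. Intervals are not given for counts because groups have replicates; floors cover counting error only. Values of 2 marker genes are not reported here.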

Additional observations from a re-analysis of the deposited data

Results flagged for a closer look

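These are members whose difference between arms differed between 2 lines by the interaction test of limma, with n = 3 libraries per group. H1299 minus A549, CELF1 differed by -0.61 (adjusted p = 2.6e-04): it was higher in all 3 OE libraries of A549 and lower in all 3 of H1299, and it passed under all 17 other settings. MBNL1 differed by -0.25 (adjusted p = 0.034, 2.6e-05 to 0.12 over the other settings, called under 8 of 17). RBFOX2 differed by -0.23 (adjusted p = 0.048, 8.0e-05 to 0.16, called under 5 of 17).

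H1694 minus DMS454, PTBP2 differed by 0.87 (adjusted p = 1.6e-06): it was higher in all 3 libraries labelled CRISPR of H1694 and lower in all 3 of DMS454, and it passed under all 16 other settings. ESRP1 differed by 0.62 (adjusted p = 0.032, 0.0042 to 0.085, called under 7 of 15) on 32 and 51 reads over the arms of H1694. MBNL1 differed by -0.23 (adjusted p = 0.041, 0.010 to 0.12, called under 7 of 16).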

How the results depend on the processing

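Of the 406 values of single members under the other settings, 387 kept direction and call, 9 lost the call, 4 gained it and 6 changed sign; of the 139 counts, 102 stayed within 1.5 times. All changes of sign were in values that had not been called: in H1299, without control 1 and OE 1 together, PTBP1 was 0.13, RBFOX2 -0.022 and PTBP2 -0.17. With 1 replicate left out at a time, MBNL3 in H1299 ran from -0.094 (without control 3) to 0.14, PTBP2 in H1299 from -0.10 (without OE 1) to 0.21, and MBNL1 in H1694 from -0.011 (without control 1) to 0.075. Without control 1 and OE 1 together H1299 had 8922 called genes in place of 4665, and 3 members (MBNL1, CELF1, PTBP1) in place of 1. Leaving out 1 replicate at a time gave 6442 to 6987 called genes and 3 members in A549, 2674 to 5429 genes and 0 to 2 members in H1299, 1964 to 6605 genes and 2 to 5 members in DMS454 (6605 and 5 without CRISPR 3, main 3560 and 4), and 1835 to 4510 genes and 1 to 2 members in H1694 (4510 and 2 without CRISPR 1, main 3134 and 1). The count of genes moved by over 1.5 times without H1299 control 2, control 3, OE 2 or OE 3, without any 1 library of DMS454, and without H1694 control 1, control 2 or CRISPR 2. The members that differed between lines numbered 1 to 3 for A549 and H1299 and 1 to 5 for DMS454 and H1694, and 1 for the latter with no filter; A549 and H1299 kept MBNL1, CELF1 and RBFOX2 without H1299 control 1 and OE 1. edgeR on the recovered reads called 7456, 4671, 3494 and 3078 genes and DESeq2 6045, 4403, 2894 and 2326 in A549, H1299, DMS454 and H1694. No cause of these changes was tested.

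Replicate numbers are shared by the groups, but the deviations of same-numbered libraries correlated at -0.54 to 0.12, so the numbers were not taken to pair the libraries; in DMS454 each library correlated best with its own number, at 0.01 to 0.03. With a replicate block H1299 had 1634 called genes and 0 members (CELF1, adjusted p = 0.081), and 1 member differed between A549 and H1299 (CELF1). The block changed no other member's call, with 7416, 3593 and 3696 genes called in A549, DMS454 and H1694. Low counts limit CELF2 in all lines, ESRP1 and ESRP2 in A549, H1299 and H1694, and MBNL3 in A549.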
